A study of Mus musculus with 8 samples.

Results

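The planar cell polarity genes are described here in the left and right heart fields of the mouse embryo, at the stage when the heart tube starts to loop. The 10 genes, of 48526 in the count table, were chosen by symbol and not by any measured value, although earlier results of these data were known. They are *Vangl1*, *Vangl2*, *Celsr1*, *Celsr2* and *Celsr3*, which encode core transmembrane proteins, *Prickle1* and *Prickle2*, which encode core cytoplasmic proteins, *Ror2* and *Ptk7*, which encode receptors of the WNT branch that acts through polarity, and *Scrib*, which encodes a scaffold. All 10 were found in the table by their Ensembl identifier.

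The heart fields of 4 wild-type male C57bl6/J embryos at E8.5f, named L29-3, L43-5, L46-8 and L49-3, were dissected and cut in 2 at the midline. RNA of each side was sequenced as bulk poly-A RNA, which gave 8 libraries, a left and a right one from each embryo. No treatment, transgene or mutation was involved, and by their labels the left and right groups differ only by side. The dissected tissue ran from below the headfolds to the second somite, without the heart tube and the back, and it holds several cell types besides cardiac precursors. In such bulk tissue, fewer cells of a type and less RNA per cell cannot be told apart.

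Planar cell polarity is the shared orientation of cells within the plane of a tissue. It is set by complexes that sit on opposite faces of neighbouring cells, with Frizzled and Dishevelled on one face and VANGL with PRICKLE on the other, held together across the junction by CELSR cadherins. WNT5A and WNT11 act on this system through FZD7, ROR2 and PTK7. In mouse embryos, loss of core members leaves the neural tube open and gives defects of the cardiac outflow tract, and the genes are widely expressed in epithelia.

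The total count per library ranged from 1147446 to 3520753, with the L49-3 pair the shallowest. All 6 markers of the second heart field were tested, and their summed normalized counts were 525 to 764 on the left and 692 to 769 on the right. The sides also differed on marker lists of other tissues, by ratio most for cardiomyocyte markers in L49-3 and neural tube markers in L46-8. In L49-3 the summed cardiomyocyte markers were at 446 in the left library and 1560 in the right. In L46-8 the summed neural tube markers were at 279 in the left library and 515 in the right. L43-5 differed too, with cardiomyocyte markers at 1936 on the left and 2963.5 on the right, and neural tube markers at 398 and 559. In L29-3 the summed paraxial mesoderm markers were at 323 on the left and 222 on the right. No marker of the 8 lists was at 0 in all libraries.

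The sequence just before the transcription start is shown for *Ptk7*, the gene with the smallest p between the sides, and for *Prickle1* and *Prickle2*, the paralogues whose ratio had the same direction in every embryo. Each is the 100 bases upstream of a RefSeq start on the minus strand of GRCm38.p6, read 5′ to 3′, with the GC box (GGGCGG or its reverse complement CCGCCC) in capitals.
*Ptk7*, chr17:46629505-46629604: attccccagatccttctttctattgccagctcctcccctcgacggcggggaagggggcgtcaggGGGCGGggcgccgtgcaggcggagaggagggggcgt
*Prickle1*, chr15:93595903-93596002: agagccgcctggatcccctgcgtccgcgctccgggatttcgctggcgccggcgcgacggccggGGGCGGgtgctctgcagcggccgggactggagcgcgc
*Prickle2*, chr6:92706185-92706284: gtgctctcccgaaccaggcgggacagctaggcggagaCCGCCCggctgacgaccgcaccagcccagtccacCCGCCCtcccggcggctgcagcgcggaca

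RefSeq promoters were at hand for 7 of the 10 genes, *Vangl2*, *Celsr2*, *Celsr3*, *Prickle1*, *Prickle2*, *Ror2* and *Ptk7*, with 11 starts in all. *Prickle1* and *Prickle2* had several starts each, of which a single one is printed above. The other genes had a single start. In the 250 bases before the start, 9 of the 11 starts held a GC box on either strand, against 32.7% of 32851 mouse promoters. Those without it were the start of *Celsr2* and a start of *Prickle2* that is not printed. The count is of starts and not of genes. None of the 11 held TATAAA, against 12.4% of all. The sequence TAATCC, the bicoid-type site, was in 2 of the 11, against 6.25% of all. These promoters had 4 to 34 CpG dinucleotides each, with a median of 17, while the median of all promoters was 6. The printed start of *Prickle2* had 18, and its other starts had 4, 5 and 4, the lowest of all. The printed start of *Prickle1* had 34 and its other start 16. The matches describe the letters of these windows only.

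The members were not detectably different between the left and right heart fields. Of the 10 genes, 9 passed the filter on low counts (20 or more normalized counts in 4 or more libraries), and 0 of the 9 had an adjusted p under 0.05 (edgeR's quasi-likelihood test, blocked by embryo, with Benjamini-Hochberg adjustment over 9744 genes), where the share of all tested genes was 0.0103%. At an unadjusted p under 0.05, 1 of the 9 passed, *Ptk7*, against 4.36% of all genes. With the threshold of the study, which asks for a 1.2-fold difference with p no higher than 0.05 before adjustment, 0 of the 9 passed, against 3.05%. DESeq2 gave 0 members at an adjusted and 0 at an unadjusted p under 0.05, and limma-voom gave 0 and 1. The fitted difference was above 0, higher on the left, for 4 members and below 0 for 5, beside 4734 above and 5010 below for all tested genes. Its median was -0.07 on the log2 scale, beside -0.0042 for all tested genes. For every member the range of the 4 left libraries overlapped that of the 4 right libraries.

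**Figure D1:**
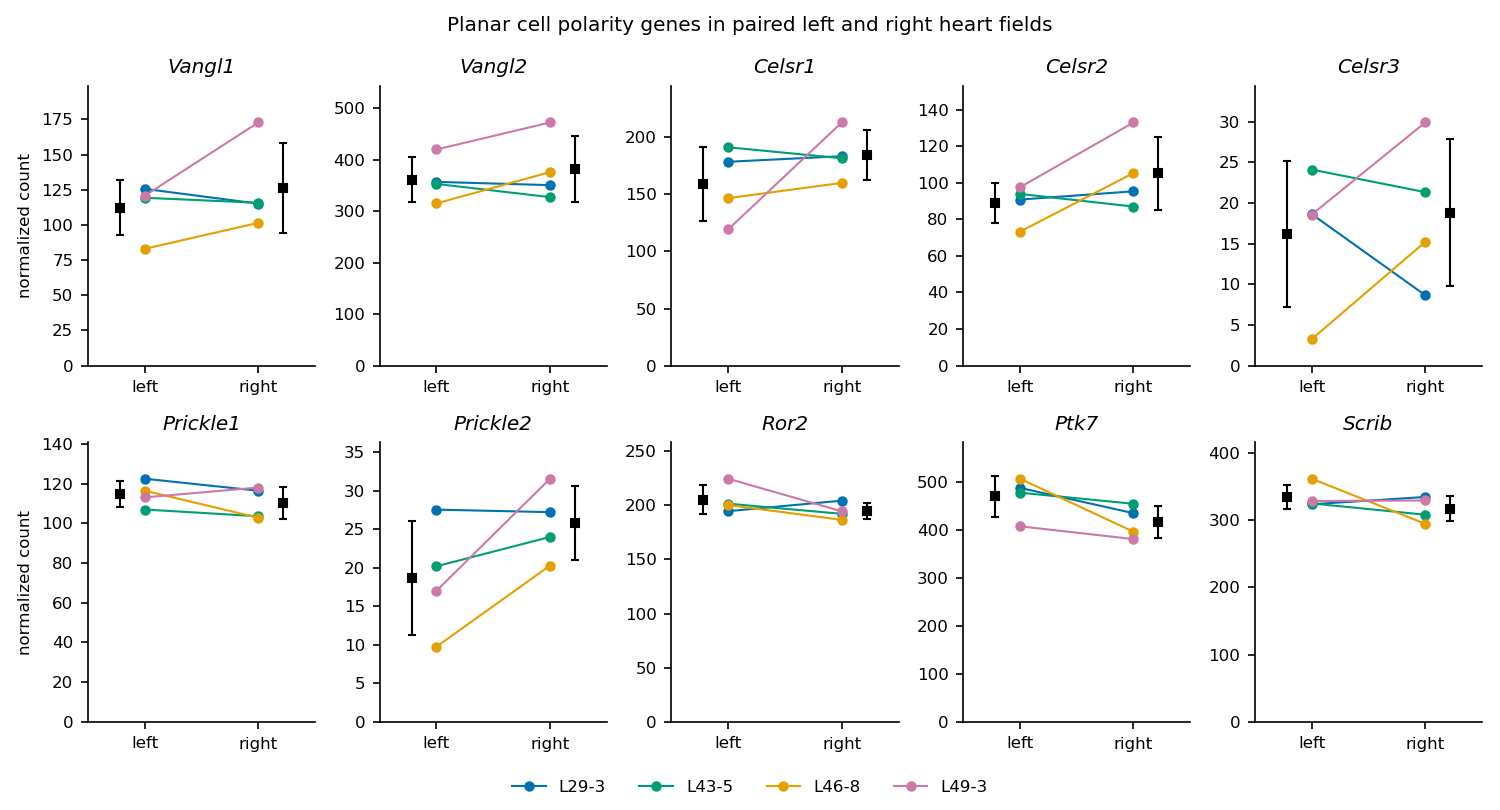
Normalized counts (vertical axes, from 0) of the 10 planar cell polarity genes in the left and right heart fields. Each colored line joins the sides of 1 embryo, and black squares with bars are the mean and SD of 4 libraries. The sides overlap in every panel, and *Ptk7* is the panel in which all 4 lines fall from left to right.

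*Ptk7* (ENSMUSG00000023972, chromosome 17, 46564471 to 46629504, minus strand), which encodes a catalytically inactive receptor kinase that takes part in WNT polarity signaling, was the most abundant member per length. Its normalized count, left against right, was 487 against 435 in L29-3, 477 against 454 in L43-5, 506 against 396 in L46-8, 407 against 381 in L49-3. The left side was the higher in each embryo, although the left value of L49-3 lay below the right values of L29-3 and L43-5. The mean was 469 ± 43.2 for the left and 416 ± 33.9 for the right side (SD, n = 4). The fold of left over right was 1.12, with a 95% interval of 1.01 to 1.25. On the log2 scale the difference was 0.17 ± 0.0727 (SE), with an unadjusted p of 0.0385 in edgeR (adjusted p = 0.987). *Ptk7* was the sole member with the same direction in all 4 embryos, a pattern met by 12.4% of the tested genes. An exact two-sided sign-flip test over the 4 embryos gave p = 0.125, the smallest that 4 pairs allow. The unadjusted p was 0.0877 without L29-3 and 0.178 without L46-8, and 0.0692 without the block for the embryo.

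*Ror2* (ENSMUSG00000021464, chromosome 13, 53109312 to 53286124, minus strand), a receptor kinase for WNT5A, was among the least variable members. Left against right, its normalized counts were 195 against 204 in L29-3, 201.5 against 192 in L43-5, 200 against 187 in L46-8, 225 against 194 in L49-3. The left side was higher in 3 embryos and lower in L29-3. The log2 difference was 0.07 ± 0.0870 (SE), with a 95% interval of -0.12 to 0.26 and an unadjusted p of 0.446 in edgeR.

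*Vangl2* (ENSMUSG00000026556, chromosome 1, 172000960 to 172028444, minus strand) is the VANGL paralogue whose loss leaves the neural tube open. Its normalized count, left against right, was 357 against 350 in L29-3, 353 against 327 in L43-5, 315 against 376 in L46-8, 420 against 472 in L49-3. The left side was slightly higher in L29-3 and L43-5 and lower in the others, and both libraries of L49-3 stood above those of the other embryos. The log2 difference was -0.07 ± 0.0812 (SE), with a 95% interval of -0.24 to 0.11 and an unadjusted p of 0.425.

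*Vangl1* (ENSMUSG00000027860, chromosome 3, 102153583 to 102204693, minus strand), which acts with *Vangl2*, had the same sign of left against right as *Vangl2* in each embryo. Left against right, its normalized counts were 126 against 115 in L29-3, 119 against 116 in L43-5, 83.0 against 102 in L46-8, 121 against 173 in L49-3. The lowest library was the left of L46-8 and the highest the right of L49-3. On the log2 scale the sides differed by -0.14 ± 0.130 (SE), with a 95% interval of -0.42 to 0.15 and an unadjusted p of 0.315. Transcripts of at least 396 other genes, at least 335 of them with counts, share a stretch at 90% identity or more with *Vangl1* transcripts. The matches kept were 119 to 170 bases long. Their number per transcript was limited by the default of the search tool, so these counts of genes are minimums. In addition, 8 exon bases of *Vangl1* overlap the antisense gene Gm16160, so that part of its count is uncertain. No such stretch was found for the other 9 members.

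*Celsr1* (ENSMUSG00000016028, chromosome 15, 85898929 to 86033777, minus strand), a cadherin of the junctional complex, had 178 against 183 normalized counts (left against right) in L29-3, 191 against 181 in L43-5, 147 against 160 in L46-8, 119 against 213 in L49-3. The sides were close in the first 3 embryos and far apart in L49-3. The log2 difference was -0.18 ± 0.132 (SE), with a 95% interval of -0.47 to 0.10 and an unadjusted p of 0.191. Without L49-3 it was -0.02.

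*Celsr2* (ENSMUSG00000068740, chromosome 3, 108390851 to 108415552, minus strand) had 90.8 against 95.3 in L29-3, 93.9 against 87.0 in L43-5, 73.3 against 105 in L46-8, 97.5 against 133 in L49-3. The left side was clearly the lower in L46-8 and L49-3 alone. On the log2 scale it differed by -0.21 ± 0.140 (SE), with a 95% interval of -0.51 to 0.10 and an unadjusted p of 0.165.

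*Celsr3* (ENSMUSG00000023473, chromosome 9, 108826320 to 108852969, plus strand), known mostly from axon guidance, reached a normalized count of 20 in 3 libraries and was not tested. Its raw counts, left against right, were 23 against 7 in L29-3, 37 against 40 in L43-5, 4 against 12 in L46-8, 12 against 18 in L49-3. The direction differed between embryos, and an exact two-sided sign-flip test gave p = 0.75. Without the filter the log2 difference was -0.17, with an unadjusted p of 0.574 in edgeR. A microRNA gene on the same strand, Gm23156, shares 65 of its exon bases.

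*Prickle1* (ENSMUSG00000036158, chromosome 15, 93499114 to 93595891, minus strand), a partner of VANGL on the inner face of the membrane, was nearly level. Left against right, its normalized counts were 122 against 116 in L29-3, 107 against 104 in L43-5, 116 against 103 in L46-8, 113 against 118 in L49-3. All 8 libraries lay between 103 and 122, with the left side higher in 3 embryos. The fitted log2 difference was 0.06 ± 0.110 (SE), with a 95% interval of -0.18 to 0.30 and an unadjusted p of 0.589.

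*Prickle2* (ENSMUSG00000030020, chromosome 6, 92370908 to 92706155, minus strand) had the largest fitted difference of the 9 and the widest interval. Its normalized counts, left against right, were 27.6 against 27.2 in L29-3, 20.2 against 24.0 in L43-5, 9.77 against 20.3 in L46-8, 17.0 against 31.6 in L49-3. These values rest on 11 to 45 reads per library, and 6 of the 8 libraries reached 20 normalized counts. The sides were level in L29-3 and the left was lower in the other 3 embryos. The fitted log2 difference was -0.45 ± 0.268 (SE), with a 95% interval of -1.03 to 0.14 and an unadjusted p of 0.121.

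*Scrib* (ENSMUSG00000022568, chromosome 15, 76047158 to 76069784, minus strand), a scaffold shared by planar and apicobasal polarity, had 323 against 334 in L29-3, 325 against 308 in L43-5, 361 against 294 in L46-8, 328 against 329 in L49-3. Apart from L46-8, the sides were close to each other. The sides differed by a log2 value of 0.08 ± 0.0795 (SE), with a 95% interval of -0.09 to 0.25 and an unadjusted p of 0.334.

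**Figure D2:**
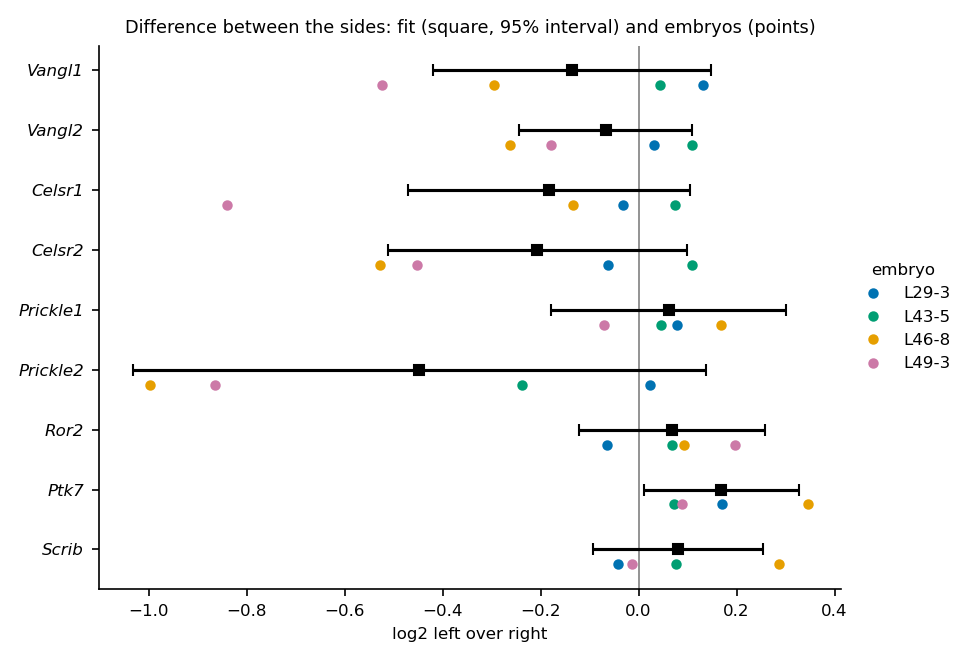
Difference between the sides for the 9 tested members, as log2 of left over right (horizontal axis). Black squares with bars are the edgeR estimate and its 95% interval, and colored points are the 4 embryos, computed from CPM plus 0.5. All intervals include 0 except that of *Ptk7*, 0.01 to 0.33, and the points of *Celsr1* and *Prickle2* spread most.

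The embryos differed in how the members split between the sides. In L29-3 and L43-5, the log2 ratios of left to right of the 9 tested members ran from -0.06 to 0.17 and from -0.24 to 0.11. In L46-8 they ran from -0.998 to 0.35, and in L49-3 from -0.86 to 0.20. *Vangl1*, *Vangl2*, *Celsr1*, *Celsr2*, *Celsr3* and *Prickle2* were lower on the left in both L46-8 and L49-3. *Ptk7* and *Ror2* were higher on the left in both of these embryos.

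The summed neural tube markers were also lower on the left in L46-8 and L49-3, although not every marker was. Of the 6 markers, 5 were tested, and 2 were called with the threshold of the study (3.05% of all tested genes were), both lower on the left. The log2 ratio of their sums, left over right, was 0.43 for L29-3, -0.49 for L43-5, -0.88 for L46-8 and -0.31 for L49-3. Their summed normalized count was 279 to 664 on the left and 373 to 821 on the right. In L46-8, *Sox1* had 6.51 normalized counts in the left library and 82.5 in the right, and *Pax6* 30.1 and 103, and the other 4 markers were lower on the left as well. In L49-3, *Sox2* went the other way, with 197 on the left against 153 on the right, and *Nes* was nearly level at 211 against 214. The ratio was negative in L43-5 as well, where *Vangl1*, *Vangl2*, *Celsr1* and *Celsr2* were slightly higher on the left. The summed paraxial mesoderm markers had the same sign as the neural tube list in each embryo. Their log2 ratio was 0.55 for L29-3, -0.50 for L43-5, -0.46 for L46-8 and -0.06 for L49-3. No other list was lower on the left in both L46-8 and L49-3. The part of neural or paraxial tissue in the values of the members was not tested. The cardiomyocyte list, with 5 of 6 markers tested and 0 called, ran from -1.81 in L49-3 to 0.65 in L46-8, with a summed level of 446 to 3580 on the left and 1306 to 3548 on the right. In the other lists of embryonic tissues 0 genes were called. Of 6 markers each, 4 were tested for surface ectoderm, 6 for foregut endoderm and 5 for endothelium. For paraxial mesoderm 3 were tested, for cranial neural crest 2 and for the second heart field 6. With so few genes tested, a count of 0 says little. The ratio of the sums ran from -0.32 to 0.38 for surface ectoderm, -0.10 to 0.37 for foregut endoderm, 0.03 to 0.42 for endothelium, -0.50 to 0.55 for paraxial mesoderm, -0.06 to 0.62 for cranial neural crest and -0.42 to 0.07 for the second heart field.

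**Figure D3:**
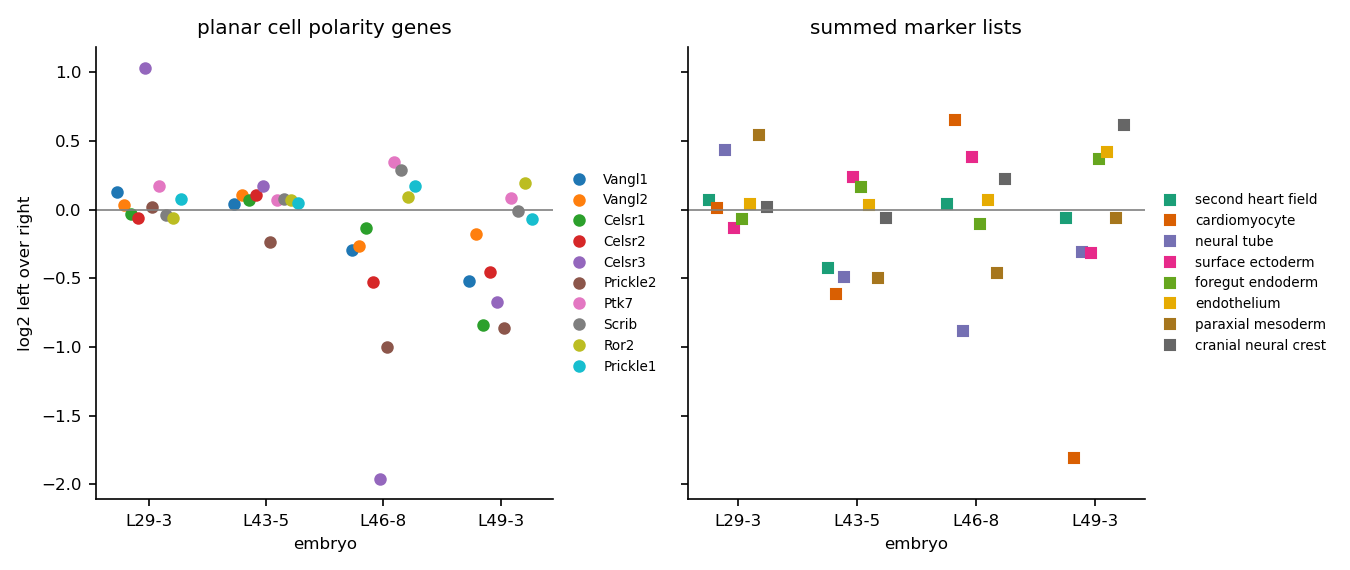
Log2 ratio of left to right in each embryo (horizontal axis) for the 10 members (left panel, CPM plus 0.5) and for the summed normalized counts of 8 lists of 6 tissue markers each (right panel). The members lie between -0.24 and 0.17 in L43-5, and spread in L46-8 and L49-3. In L29-3 *Celsr3* is at 1.03. The neural tube list is at -0.88 in L46-8 and the cardiomyocyte list at -1.81 in L49-3.

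Embryos were also compared with each other, with the side in the model. Of the 9 tested members, 0 had an adjusted p under 0.05 in edgeR, DESeq2 or limma-voom, against 0.174% of all tested genes in edgeR. At an unadjusted p under 0.05, 2 of the 9 passed, against 9.99%. *Vangl2* had an unadjusted p of 0.0176 in edgeR (adjusted p = 0.351). *Vangl1* had an unadjusted p of 0.0334 in edgeR (adjusted p = 0.439). The mean normalized count of *Vangl2* over both sides was 446 in L49-3 and 340 to 354 in the other embryos. That of *Vangl1* was 147 in L49-3 and 92.3 in L46-8, with L29-3 and L43-5 at 120 and 118.

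Levels were compared between genes as CPM (counts scaled to the library size) per kilobase of exon. *Ptk7* stood first at 44.5 ± 4.54 (SD, n = 8 libraries) and above the next gene in every library. *Vangl2* at 28.7 ± 4.05, *Scrib* at 27.3 ± 1.60 and *Ror2* at 25.5 ± 1.43 followed, with overlapping ranges. *Vangl2* was above *Scrib* in 5 of 8 libraries, and their order turned when the longest transcript was used as the length. *Prickle1* was at 14.0 ± 0.909, below all of these in every library. *Vangl1* at 9.02 ± 1.95 and *Celsr1* at 8.43 ± 1.43 could not be ordered, with *Vangl1* the higher in 3 of 8 libraries. *Celsr2* was at 4.56 ± 0.821, *Prickle2* at 1.39 ± 0.436 and *Celsr3* at 0.784 ± 0.380, each below the gene before it in all 8 libraries, although the ranges of *Celsr1* and *Celsr2* overlap, as do those of *Prickle2* and *Celsr3*.

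**Figure D4:**
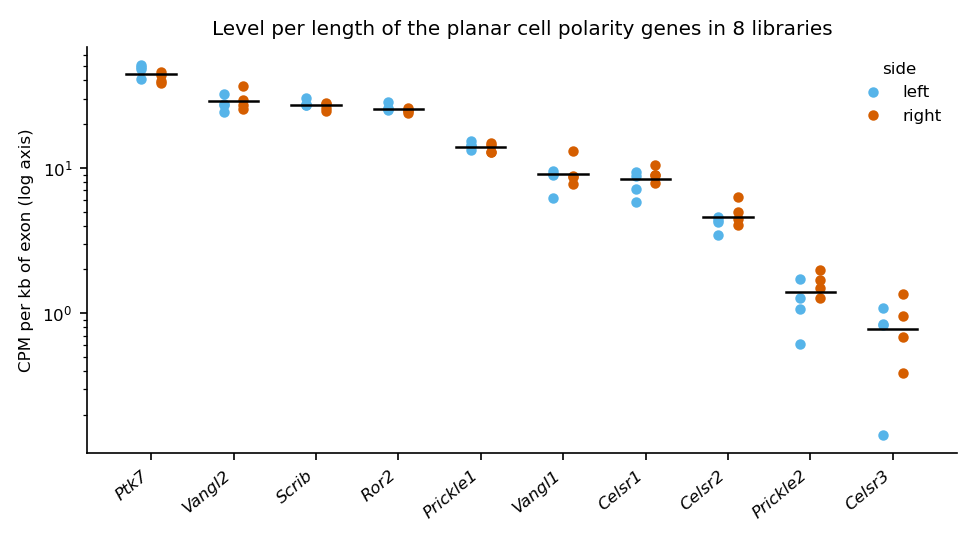
Level of the 10 members in CPM per kilobase of exon (vertical log axis), with blue points for the 4 left and orange points for the 4 right libraries and a black bar for the mean of 8. *Ptk7* is highest with a mean of 44.5 and *Celsr3* lowest with 0.784, and for each gene the colors overlap.

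Within each family a single paralogue gave most of the transcripts per length, on both sides. *Vangl2* made up 76.2% of the VANGL level (73.7 to 79.5% over the 8 libraries), 3.25 times the level of *Vangl1* on average. *Prickle1* made up 91.0% of the level of both PRICKLE genes (88.1 to 95.9%). *Celsr1* made up 61.2% of the CELSR level, *Celsr2* 33.2% and *Celsr3* 5.52%.

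The balance of paralogues was compared between the sides within each embryo, as the log2 ratio of their counts plus 1. The ratio of *Prickle1* to *Prickle2* was higher on the left for each of the 4 embryos, by 0.07 for L29-3, 0.28 for L43-5, 1.199 for L46-8 and 0.78 for L49-3. The mean was 0.58 ± 0.506 (SD, n = 4), with an exact two-sided sign-flip p of 0.125, the smallest possible, and 0.375 after adjustment over the 3 families. Without L46-8 the mean was 0.38. The ratio of *Vangl2* to *Vangl1* differed by 0.09 ± 0.184 and was the higher on the left side of 3 embryos (exact p = 0.5, adjusted 0.75). Without L49-3 that difference was 0.0026. The ratio of *Celsr1* to *Celsr2* differed by 0.0018 ± 0.320, with 2 embryos in each direction (exact p = 1, adjusted 1).

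The rest of the pathway was described with a list of 44 genes, of which 35 passed the filter. Of these, 0 had an adjusted p and 1 an unadjusted p under 0.05 in edgeR, and DESeq2 called 0 with the threshold of the study. By fitted value, 23 were higher and 12 lower on the left, beside 4734 higher and 5010 lower of all tested genes. The median log2 difference was 0.05, beside -0.0042 for all tested genes. With the threshold of the study, 1 of the 35 was called, *Fat4*, higher on the left, a direction and threshold met by 1.63% of all tested genes. Ligands and other receptors (4 of 8 tested) had a median of 0.11, Frizzled and Dishevelled (5 of 6) of 0.09, core regulators and trafficking (6 of 7) of 0.07, effectors (10 of 12) of 0.04, Fat and Dachsous (4 of 5) of 0.13, and partners of Scribble (6 of 6) of -0.01. The genes with the same direction in 4 embryos were 4 of 35, against the 12.4% of all tested genes given above for either direction. They were *Ryk*, *Dvl2*, *Rock2* and *Fat4*, all higher on the left, as were 610 of the 9744 tested genes.

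*Fat4* (ENSMUSG00000046743, chromosome 3, 38886940 to 39011985, plus strand) encodes a giant cadherin that pairs with Dachsous between cells. Its normalized count, left against right, was 73.0 against 54.5 in L29-3, 81.5 against 62.4 in L43-5, 74.9 against 66.0 in L46-8, 60.4 against 34.9 in L49-3. The left side was higher in each embryo, and the ranges of the sides overlap. The log2 difference was 0.40 ± 0.151 (SE), with an unadjusted p of 0.0210 in edgeR (adjusted p = 0.987). The unadjusted p was 0.0550 without L29-3, 0.0639 without L43-5, 0.0598 without L49-3 and 0.112 with DESeq2.

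Among the upstream genes, *Wnt5a*, a polarity ligand, was at 136 ± 15.8 for the left and 145 ± 23.9 for the right side (SD, n = 4), with a log2 difference of -0.06 and an unadjusted p of 0.648 in edgeR. *Wnt11*, with 3 to 28 reads per library, was not tested. *Ror1*, the paralogue of *Ror2*, differed by 0.18 on the log2 scale, with an unadjusted p of 0.266 in edgeR. *Dvl2*, which encodes a Dishevelled, differed by 0.18, with an unadjusted p of 0.0929 in edgeR. *Fzd7*, which encodes a Frizzled receptor, differed by 0.12, with an unadjusted p of 0.157 in edgeR.

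The profile of *Ptk7* over the 8 libraries was compared with those of all other tested genes by the root mean square difference of centred log2 CPM. The 5 nearest genes were *Fam160a2* (0.0387), *Ankrd11* (0.0442), *Dnmt3a* (0.0452), *Dctn1* (0.0489) and *Commd1* (0.0502), while the median over all genes was 0.233. The root mean square of *Ptk7* around its own mean was 0.138. Genes with little variation lie close to each other on this measure, and the 8 libraries come from 4 embryos.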

How the data were processed

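The deposited values are raw counts of reads per gene. Paired-end reads had been aligned by the authors with HISAT2 to GRCm38 (mm10), duplicate reads excluded and the rest counted with featureCounts (Subread). Versions of these tools and the strand setting of the counting are not given in the sources used here. Removal of duplicates can compress the counts of abundant genes, and a gene at 0 in a library may still stand for up to 3 counts. Precision follows from counts of 1147446 to 3520753 per library.

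Samples were grouped by the side in their labels, and both sides of an embryo were paired, being from 1 animal. Deviations from the side means correlated within the pairs with r = 0.165 (L29-3), 0.190 (L43-5), -0.02 (L46-8) and 0.438 (L49-3). In the comparison of sides, the edgeR p-values rest partly on how the left against right difference varied among these 4 embryos. The method draws the spread of each gene toward that of other tested genes. The p-values and intervals are therefore not those of 1 gene's spread among 4 embryos alone. In the comparison of embryos, each had 1 left and 1 right library, so the spread is that within embryos.

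Sides were compared with the quasi-likelihood test of edgeR 4.0.16 (R 4.3.3, TMM, embryo as a block, as in the paired design of the study) on 9744 genes that reached 20 DESeq2-normalized counts in 4 or more libraries. Normalized counts are counts divided by DESeq2 size factors. DESeq2 1.42.0, limma 3.58.1 and 9 other settings were alternatives. On simulated counts for 9744 genes, edgeR recovered 92% of 200 genes changed 2-fold between the sides and called 14 others. Another 200 genes were changed 2-fold in a single embryo, and no other difference between embryos was simulated. Smaller changes between the sides were not simulated, so the recovery at the sizes fitted for the members is not known. Levels per length used the merged exons of GENCODE vM21. Log2 ratios of single embryos used TMM-scaled CPM plus 0.5. Exact sign-flip tests were two-sided. Promoters were taken from RefSeq.

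The members and the gene lists were chosen with earlier results of these data known. The text names all 10 members, the related genes that passed the threshold of the study, *Wnt5a*, *Wnt11*, *Ror1*, *Dvl2* and *Fzd7* whatever their values, and the 5 genes closest to the member with the smallest p. *Ryk*, *Rock2*, *Dchs1*, *Daam2* and *Fjx1* were named after their values were seen. Of the 8 marker lists of 6 genes (second heart field, cardiomyocyte, neural tube, surface ectoderm, foregut endoderm, endothelium, paraxial mesoderm and cranial neural crest), the neural tube list alone held genes called with the threshold of the study. Between 2 (cranial neural crest) and 6 genes of a list were tested.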

Additional observations from a re-analysis of the deposited data

Results flagged for a closer look

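In 2 of 30 groups of 4 values examined for the members, a sample lay far from the others by Dixon's test, and chance alone flags about 1 in 20. The left library of L46-8 had 83.0 normalized counts of *Vangl1*, while the other left libraries had 119 to 126 (gap over range 0.851). The same library had 361 normalized counts of *Scrib*, against 323 to 328 in the other left libraries (gap over range 0.874). This library also had the lowest summed neural tube markers, 279, and the part of this in either value was not tested.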

How the results depend on the processing

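The 9 tested members kept their direction under all 11 alternatives, their adjusted p stayed at 0.956 or above, and the count called with the threshold of the study stayed at 0. The count at an unadjusted p under 0.05, which is *Ptk7*, went from 1 to 0 with DESeq2 and without the replicate block, and ranged from 0 to 1 when an embryo was left out (0 without L29-3 or L46-8). The log2 difference of *Ptk7* ranged from 0.11 to 0.21. Several differences came close to 0 or shrank when a single embryo was left out: without L46-8, *Vangl2* went from -0.07 to -0.0024, *Scrib* from 0.08 to 0.01, *Celsr2* from -0.21 to -0.10 and *Prickle1* from 0.06 to 0.03, and without L49-3, *Vangl1* went from -0.14 to -0.03, *Celsr1* from -0.18 to -0.02 and *Ror2* from 0.07 to 0.03. The count of related genes called went from 1 to 0 with DESeq2 and ranged from 0 (without L43-5) to 2 (without L46-8). The genes differed: *Fat4* in the full set, *Dchs1* (log2 difference 0.26) without L29-3, *Daam2* (0.50) without L49-3, and *Fat4* with *Fjx1* (-0.47) without L46-8. The replicate block changed no other call of the members or related genes. The left minus right difference of *Celsr1* over *Celsr2* ranged from -0.13 (without L46-8) to 0.13 (without L49-3) and was -0.0089 without L29-3, turning direction. That of *Vangl2* over *Vangl1* ranged from 0.0026 (without L49-3) to 0.15 (without L29-3), and that of *Prickle1* over *Prickle2* from 0.38 (without L46-8) to 0.75 (without L29-3). The causes were not tested. Measured by the longest transcript, *Ror2*, *Ptk7* and *Scrib* were at 27.1, 56.5 and 31.4 CPM per kilobase. Depth limits *Celsr3* and *Prickle2* most, with as few as 4 and 11 reads in a library.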
